A study of Homo sapiens with 8 samples.

Results

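The genes described here encode protein kinase A (PKA), the main cyclic AMP-dependent kinase of the cell, together with its inhibitor peptides and a pair of the proteins that hold it in place. The set has 10 members out of the 58870 genes in the deposited table, and all 10 passed the filter on low counts. They are the catalytic subunits PRKACA and PRKACB, the regulatory subunits PRKAR1A, PRKAR1B, PRKAR2A and PRKAR2B, the inhibitors PKIA and PKIB, and the A-kinase anchoring proteins AKAP1 and AKAP12. Members were found by gene symbol. AKAP12 was chosen on its measured fall in the comparison described here, so its difference is given as a description without a test. The other 9 were listed as parts of the PKA holoenzyme and its partners, with earlier results of these data known.

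Bulk RNA was sequenced from CFPAC-1, an established cell line from a human ductal adenocarcinoma of the pancreas. One group carried an empty vector (n = 4) and the other an ADRA2A transgene (n = 4); both were grown for 72 hours in serum-containing medium without any drug or receptor agonist being added. ADRA2A is the gene of the alpha-2A adrenoceptor, which couples to Gi and on activation lowers cyclic AMP. The labels name neither the promoter that drives the transgene nor whether the cells of a group are 1 clone, and they do not say whether the 4 libraries of a group came from separate cultures. The p-values therefore measure only the spread between these libraries, which may be technical.

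PKA rests as a complex of regulatory and catalytic subunits. When cyclic AMP binds the regulatory subunits, the catalytic subunits are released from inhibition and phosphorylate their targets. Type I regulatory subunits (PRKAR1A, PRKAR1B) are mostly cytosolic, while type II subunits (PRKAR2A, PRKAR2B) are mostly bound to A-kinase anchoring proteins. PKIA and PKIB bind free catalytic subunits as pseudosubstrates and block them, and PKIA also carries them out of the nucleus. AKAP1 anchors PKA at the outer mitochondrial membrane. AKAP12, also called gravin or SSeCKS, is a large scaffold under the plasma membrane that gathers PKA with protein kinase C and calmodulin, and it is often reduced in carcinomas.

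Libraries held between 14427040 and 17528910 estimated counts. ADRA2A had 0 counts in each empty-vector library and between 112 and 172 counts in the ADRA2A libraries, as the labels require. Of 6 ductal epithelial markers, 5 were readily detected, and KRT8, KRT18 and KRT19 averaged 4880, 2529 and 2826 CPM in the empty-vector cells (counts-per-million after TMM scaling of the library sizes). CFTR, the sixth, stood at 0.708 ± 0.309 and 0.431 ± 0.122 CPM (SD, n = 4 each), too low to be tested. INS, GCG, CHGA and CD3E were at 0 in every library.

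The transgene libraries had less RNA of AKAP12, PRKAR2B and PKIB, each by more than 2-fold, while the genes that make up most of the kinase moved by little. Of the 9 members other than AKAP12, 6 were lower and 1 was higher in the ADRA2A cells at a Benjamini-Hochberg adjusted p under 0.05 in edgeR's quasi-likelihood test. The background was wide: 42.7% of the 14785 genes tested were called at that threshold, 21.1% lower and 21.6% higher. The median log2 fold change of the 9 was -0.14, against 0.00 over all genes tested. A fall of at least 1 on the log2 scale, past the same threshold, was reached by 2 of the 9, PRKAR2B and PKIB, and by 2.11% of all genes tested. PRKAR2B passed the filter on low counts only through its empty-vector libraries, where it was higher. In 6 of the 9 members every library of one group lay above every library of the other, as in 39.2% of all genes tested.

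The calls differed in how firmly they stood. Those of PKIB and AKAP1 held in all 14 alternatives. The call of PRKAR2B held in the 13 that tested the gene. PRKAR2B passed the filter on low counts only through its empty-vector libraries, which limits what these repeats can show. Those of PRKACB, PRKAR1A, PRKAR1B and PKIA were each lost in at least 2 of the fits that left out 1 library, and without empty-vector library 4 the count of calls fell from 7 to 3. The libraries are shown one by one in the plot of members by library.

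**Figure D1:**
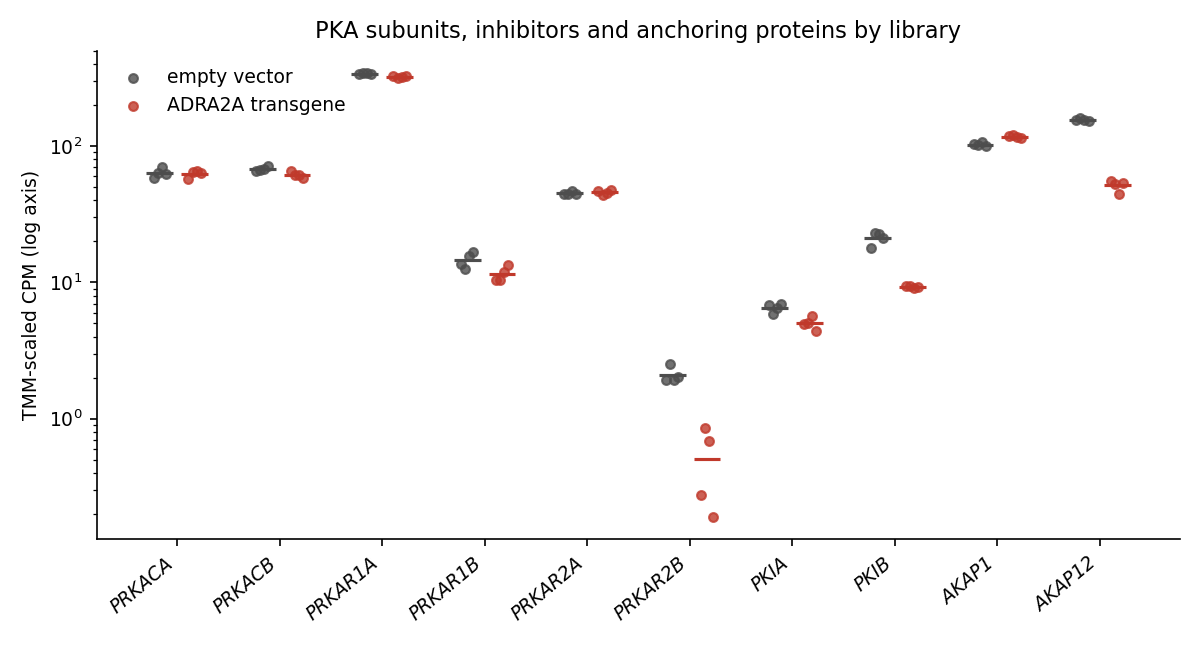
TMM-scaled CPM (log axis) of the 10 members in each library; grey points are the 4 empty-vector libraries, red points the 4 ADRA2A libraries, and bars are group means. AKAP12, PKIB and PRKAR2B are the members whose points are far apart between the groups, and PRKAR2B is also the member with the lowest CPM.

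Upstream stretches of the 3 members with the larger falls are shown because they are where a cyclic AMP response element would be looked for. RefSeq promoter windows (GRCh38.p14, from 250 bases before to 50 after a start) were matched for 9 of the 10 members, PKIA being the one without, and gave 29 windows, several of which overlap. Motifs were searched on both strands: the cyclic AMP response element TGACGTCA, its core TGACG (which every full element contains), the E-box CACGTG and the GC box GGGCGG. The stretches are written 5′ to 3′ on the plus strand of GRCh38, trimmed to bases outside annotated exons, with E-boxes and TGACG cores (CGTCA on the other strand) in capitals. AKAP12 start 1 covers chr6:151239717-151239966, AKAP12 start 2 chr6:151325281-151325530, PRKAR2B chr7:107044455-107044704 and PKIB start 1 chr6:122471808-122471916.
AKAP12 start 1: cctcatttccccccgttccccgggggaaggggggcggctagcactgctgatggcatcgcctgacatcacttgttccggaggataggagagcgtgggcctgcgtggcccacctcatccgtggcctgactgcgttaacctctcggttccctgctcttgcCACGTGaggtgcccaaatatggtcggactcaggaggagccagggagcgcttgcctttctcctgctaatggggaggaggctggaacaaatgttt
AKAP12 start 2: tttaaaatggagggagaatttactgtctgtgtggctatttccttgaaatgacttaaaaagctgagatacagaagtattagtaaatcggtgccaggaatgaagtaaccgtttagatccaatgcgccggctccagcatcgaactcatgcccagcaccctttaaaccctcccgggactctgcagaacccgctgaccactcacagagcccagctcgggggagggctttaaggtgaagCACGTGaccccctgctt
PRKAR2B: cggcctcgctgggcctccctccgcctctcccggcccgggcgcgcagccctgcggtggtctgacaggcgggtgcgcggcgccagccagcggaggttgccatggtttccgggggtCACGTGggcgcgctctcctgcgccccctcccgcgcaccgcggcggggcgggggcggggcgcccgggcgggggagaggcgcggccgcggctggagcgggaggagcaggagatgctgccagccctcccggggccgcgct
PKIB start 1: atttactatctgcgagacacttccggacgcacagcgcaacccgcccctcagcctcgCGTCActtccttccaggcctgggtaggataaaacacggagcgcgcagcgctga

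None of the 3 AKAP12 windows and not the single PRKAR2B window held TGACG or the full element. TGACG stood in 14 of the 29 windows, with at least 1 in each of PRKACA, PRKACB, PRKAR1A, PRKAR1B, PRKAR2A, PKIB and AKAP1. In PKIB these were the windows at its first and second starts (3 matches at the first, 1 of them in the stretch shown). The full element was found only in 2 overlapping windows of PRKAR1A. Among all 35116 promoter windows, 24.6% held TGACG and 1.8% the full element. The E-box stood in all 3 AKAP12 windows and in the PRKAR2B window, against 7.3% of all windows, and in 1 window each of PKIB, PRKAR1A and AKAP1. In AKAP12 start 3 and in PKIB the E-box lay outside the stretches shown. The GC box was in 18 of the 29 windows, against 45% of all. A match describes these letters and not binding, and counts per gene do not say which start was in use.

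AKAP12 had the largest loss of RNA in CPM among the members. AKAP12 (ENSG00000131016.17; chromosome 6, 151239967 to 151358559, plus strand) stood at 157, 161, 156 and 152 CPM in empty-vector libraries 1 to 4 and at 55.8, 52.9, 44.4 and 53.6 CPM in ADRA2A libraries 1 to 4. Every transgene library lay far under every control library, and library 3 was the lowest. The means were 157 ± 3.81 and 51.7 ± 5.01 CPM (SD, n = 4 each), 3.03-fold lower, with a fitted log2 fold change of -1.60 ± 0.05 (SE). Because AKAP12 was chosen on this difference it carries no test. By fitted log2 fold change it was the 141st lowest of the 14785 genes tested, and 0.947% of them had a lower value. Over the alternatives the log2 fold change lay between -1.64 and -1.53.

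In bulk RNA, fewer cells with AKAP12 and less AKAP12 RNA in each cell cannot be told apart. AKAP12 is also abundant in fibroblasts, so fibroblast markers were read beside it. COL1A2, PDGFRB, DCN and LUM together made 1.83 to 2.21 CPM in the empty-vector libraries and 0.969 to 1.60 CPM in the ADRA2A libraries. LUM was the only one of the 4 to pass the filter, at 1.38 ± 0.216 and 0.925 ± 0.368 CPM (SD, n = 4 each; edgeR adjusted p = 0.168). The means in empty-vector and ADRA2A cells were 0.441 and 0.148 CPM for COL1A2, 0.201 and 0.0316 CPM for PDGFRB, and 0.0293 and 0.170 CPM for DCN. The summed level of these 4 moved the same way as AKAP12. COL1A1, a collagen chain gene that fibroblasts also express and that was not on the list, went from 78.4 ± 1.93 to 23.9 ± 1.22 CPM (SD, n = 4 each), and the part of these markers in the AKAP12 result was not tested. The summed endothelial markers made 0.589 to 1.22 CPM and 2.15 to 2.78 CPM, nearly all from PECAM1, with CDH5 at or near 0. The summed leukocyte markers made 88.1 to 95 CPM and 108 to 119 CPM, nearly all from CD68, with PTPRC near 0 and CD3E at 0. The summed acinar markers made at most 0.271 CPM in any library. The part of these in the result was not tested either.

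**Figure D2:**
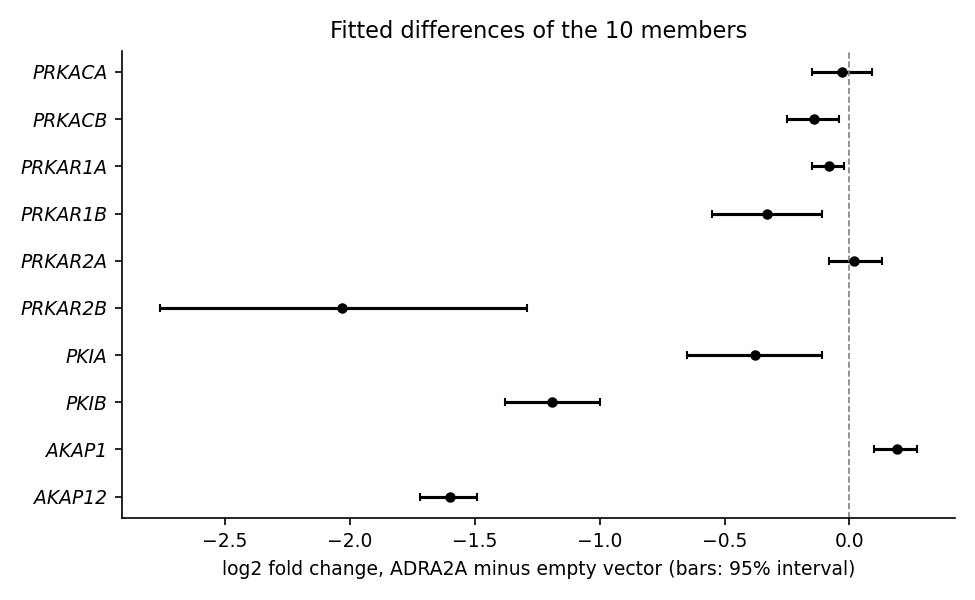
Fitted log2 fold change of each member (ADRA2A minus empty vector; horizontal axis) with its 95% interval. The intervals of PRKACA and PRKAR2A include 0, the interval of PRKAR2B is the widest, and AKAP1 is the member above 0 whose interval leaves out 0.

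The catalytic subunits, which carry the kinase activity, were nearly level. PRKACA (ENSG00000072062.13; chromosome 19, 14091688 to 14118084, minus strand) had 58.9, 63.9, 70.2 and 62.9 CPM in the empty-vector libraries and 57.1, 64.5, 65.7 and 63.2 CPM in the ADRA2A libraries. The groups overlapped throughout, and the log2 fold change was -0.03 with a 95% interval from -0.15 to 0.09 (edgeR adjusted p = 0.710). In ratio terms that interval runs from 0.902 to 1.06. PRKACB (ENSG00000142875.19; chromosome 1, 84078062 to 84238498, plus strand) had 66.0, 66.8, 67.6 and 71.9 CPM against 66.0, 61.1, 61.4 and 58.0 CPM. ADRA2A library 1 and empty-vector library 1 nearly touched, and the others were apart. PRKACB was lower by a small step, with a log2 fold change of -0.14 (SE 0.05; adjusted p = 0.0224, edgeR), and without empty-vector library 4 its adjusted p was 0.0850.

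The regulatory subunits bind cyclic AMP, and PRKAR1A was the most abundant of them. PRKAR1A (ENSG00000108946.14; chromosome 17, 68511780 to 68551319, plus strand) had 339, 345, 343 and 338 CPM in the empty-vector libraries and 326, 315, 320 and 328 CPM in the ADRA2A libraries. The groups did not overlap but were close, with means of 341 ± 3.35 and 322 ± 5.97 CPM (SD, n = 4 each). PRKAR1A replicated most tightly in the controls, with a coefficient of variation of 0.982%, and its log2 fold change of -0.08 (SE 0.03; adjusted p = 0.0362, edgeR) passed the threshold at that size. Over the alternatives its adjusted p lay between 0.0135 and 0.111.

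PRKAR1B encodes the type I subunit best known from neurons. PRKAR1B (ENSG00000188191.15; chromosome 7, 549197 to 727650, minus strand) had 13.6, 12.6, 15.6 and 16.6 CPM in the empty-vector libraries against 10.4, 10.5, 12.0 and 13.4 CPM. ADRA2A library 4 lay above empty-vector library 2, which left the groups overlapping. The fitted log2 fold change stood at -0.33 (SE 0.11; adjusted p = 0.0163, edgeR), and without empty-vector library 4 the adjusted p was 0.0687. The gene overlaps DNAAF5 on the opposite strand, which held 722 to 1141 counts per library, and the use of strand in counting was not given in the sources used here, so the PRKAR1B counts are uncertain.

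The type II subunits went separate ways. PRKAR2A (ENSG00000114302.16; chromosome 3, 48744597 to 48847874, minus strand) had 44.4, 44.9, 47.2 and 44.4 CPM in the empty-vector libraries and 46.8, 43.7, 45.2 and 47.9 CPM in the ADRA2A libraries. These groups overlapped, with a log2 fold change of 0.02 and a 95% interval from -0.08 to 0.13 (edgeR adjusted p = 0.780). PRKAR2B (ENSG00000005249.13; chromosome 7, 107044705 to 107161811, plus strand) encodes the type II subunit known from fat and brain. It held 33, 37, 33 and 31 counts in the empty-vector libraries and 4, 13, 12 and 3 counts in the ADRA2A libraries.

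Every ADRA2A library was thus under every control library for PRKAR2B, at counts where single reads matter. The gene passed the filter on low counts only through its empty-vector libraries, which limits what its call can show. The means were 2.10 ± 0.280 and 0.503 ± 0.321 CPM (SD, n = 4 each), 4.17-fold lower. The log2 fold change was -2.03 (SE 0.35; adjusted p = 1.02e-04, edgeR), with a 95% interval from -2.76 to -1.29, and it lay between -2.38 and -1.76 over the alternatives. The ADRA2A libraries varied by 63.8% (coefficient of variation), the widest spread of any member, so the direction of the fall is better fixed than its size. Overlapping PRKAR2B-AS1 on the opposite strand had 0 counts in all libraries.

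Both inhibitor peptide genes among the members were lower. PKIB (ENSG00000135549.15; chromosome 6, 122471917 to 122726373, plus strand) had 17.9, 23.1, 22.7 and 21.3 CPM in the empty-vector libraries and 9.41, 9.44, 9.16 and 9.23 CPM in the ADRA2A libraries. The transgene libraries were almost identical, with a coefficient of variation of 1.44%, and the lowest control library was well above them. PKIB was 2.28-fold lower, with a log2 fold change of -1.19 (SE 0.09; adjusted p = 2.98e-09, edgeR). PKIA (ENSG00000171033.13) had 6.79, 5.90, 6.51 and 7.0 CPM against 4.98, 5.02, 5.67 and 4.43 CPM. Its groups lay side by side without overlap, at a log2 fold change of -0.38 (SE 0.13; adjusted p = 0.0235, edgeR), and without ADRA2A library 4 the adjusted p was 0.0715.

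PKIG, the remaining inhibitor gene, had 15.2 ± 0.674 and 15.0 ± 1.15 CPM (SD, n = 4 each) and a log2 fold change of -0.02 (SE 0.08; adjusted p = 0.901, edgeR). PRKX, a kinase related to the catalytic subunits, had a log2 fold change of -0.23 (SE 0.09; adjusted p = 0.0540, edgeR). Its near-identical copy PRKY, which makes the count of PRKX uncertain, went the other way (log2 fold change 0.3, SE 0.1; adjusted p = 0.0176, edgeR). An exchange of reads between them was not tested. PRKACG, the catalytic subunit gene known from testis, was at 0 in every library. PKIG, PRKX and PRKACG were the 3 other subunit and inhibitor genes listed. Of these 2 were tested and 0 were called by edgeR at an adjusted p under 0.05.

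AKAP1 went the other way from AKAP12. AKAP1 (ENSG00000121057.13; chromosome 17, 57085092 to 57121346, plus strand) had 103, 102, 107 and 99.7 CPM in the empty-vector libraries and 118, 121, 116 and 114 CPM in the ADRA2A libraries. The groups did not overlap, and AKAP1 rose by a log2 fold change of 0.19 (SE 0.04; adjusted p = 6.87e-04, edgeR), a ratio with a 95% interval from 1.08 to 1.21. The call held in all 14 alternatives.

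Levels of different members were compared as CPM per kilobase of exon, since longer genes collect more reads. In the empty-vector cells the order was PRKAR1A (27.1 ± 0.266), AKAP1 (19.3 ± 0.547), AKAP12 (17.8 ± 0.434), PRKACB (9.95 ± 0.387), PRKACA (8.73 ± 0.643), PKIB (6.19 ± 0.685), PRKAR2A (5.20 ± 0.154), PRKAR1B (2.93 ± 0.366), PKIA (1.63 ± 0.119) and PRKAR2B (0.167 ± 0.0223), each as mean ± SD over 4 libraries. PRKACB stood above PRKACA in each control library, although their ranges (9.64 to 10.5 and 8.03 to 9.58) nearly met. With the longest transcript as the length, PRKACA had the higher mean, 16.0 ± 1.18 against 15.1 ± 0.587 (SD, n = 4 each), so their order is not fixed. In the ADRA2A cells AKAP12 stood at 5.89 ± 0.571 and PKIB at 2.71 ± 0.0391 (SD, n = 4 each). The order depends on the length used: with the longest coding sequence PKIB, at 65.0 ± 7.19, had a higher mean than PRKACB, at 57.0 ± 2.22, in the controls (SD, n = 4 each).

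The make-up of the kinase itself, in RNA per kilobase, barely moved. PRKAR1A made 76.6% ± 0.959 of the regulatory pool in the empty-vector cells and 77.0% ± 0.750 in the ADRA2A cells (SD, n = 4 each). PRKAR2B made 0.471% ± 0.0644 and 0.122% ± 0.0799 of it (SD, n = 4 each), so its 4.17-fold fall touched a very small share of the pool. The type II share was 15.1%, 15.2%, 15.5% and 14.9% in the empty-vector libraries and 16.2%, 15.8%, 15.9% and 16.1% in the ADRA2A libraries. The type II share was thus slightly higher with the transgene although PRKAR2B fell: PRKAR2A overlapped between the groups, and both type I genes were lower. With the longest coding sequence as the length, the type II share was 10.0% and 10.4% and the groups overlapped.

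The ratio of regulatory to catalytic RNA was 1.90 ± 0.0582 in the empty-vector cells and 1.90 ± 0.0839 in the ADRA2A cells (SD, n = 4 each). PKIA and PKIB were lower relative to the catalytic RNA. For every 100 units of catalytic RNA there were 39.1, 44.4, 42.3 and 41.7 units of PKIA plus PKIB in the empty-vector libraries and 22.9, 22.6, 22.8 and 22.2 in the ADRA2A libraries. PKIG, at 6.16 ± 0.273 and 6.09 ± 0.467 CPM per kilobase (SD, n = 4 each), was as abundant as PKIB in the controls, and with it included the inhibitor RNA was 75.0 ± 2.30 and 57.3 ± 2.20 per 100 units. With the longest coding sequence as the length, PKIA plus PKIB came to 87.6 ± 3.12 and 50.2 ± 1.20 per 100 units (SD, n = 4 each). The AKAP12 to AKAP1 ratio was 0.926 ± 0.0294 and 0.268 ± 0.0258 (SD, n = 4 each). These are sums over chosen members and carry no test.

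**Figure D3:**
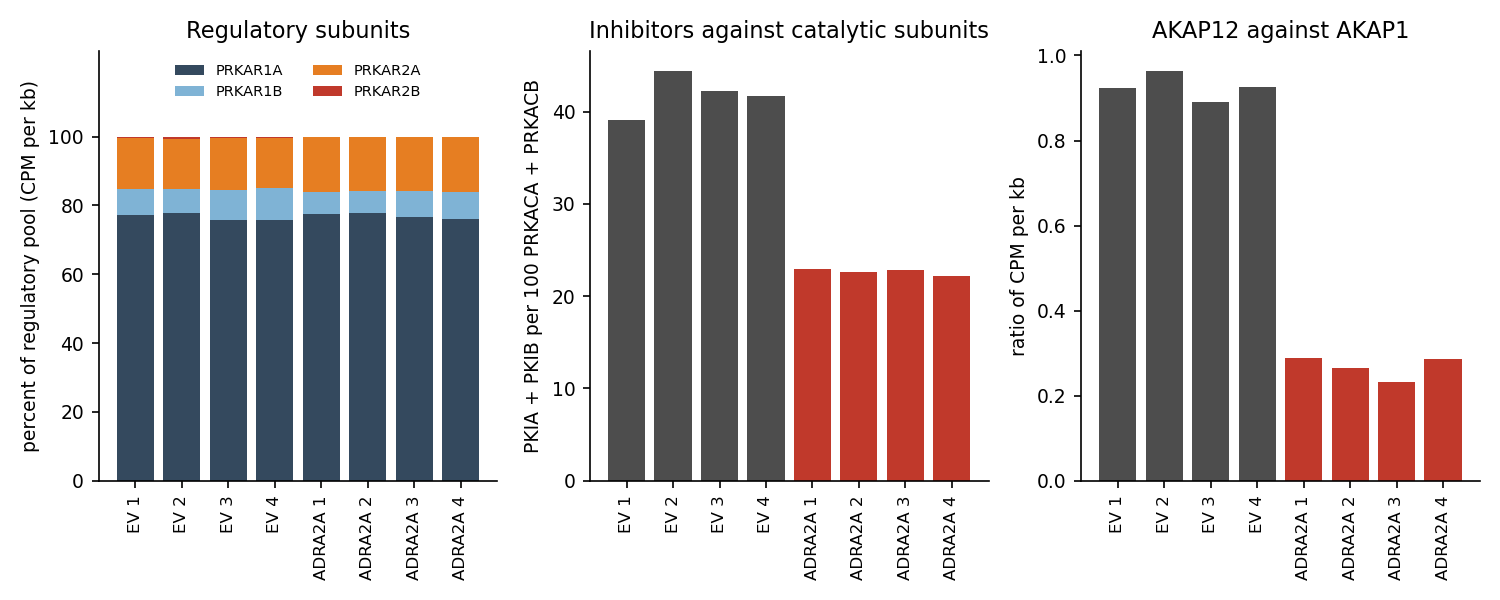
Composition by library in CPM per kilobase of exon: percent of the regulatory pool by subunit (left), PKIA plus PKIB per 100 units of PRKACA plus PRKACB (middle), and the ratio of AKAP12 to AKAP1 (right). EV is the empty vector; the regulatory pool looks alike in all 8 libraries, while the inhibitor and AKAP12 bars of the 4 ADRA2A libraries are far lower, near 22.6 against 41.9 and 0.268 against 0.926 on average.

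Other anchoring proteins changed in both directions. Of 30 other A-kinase anchoring protein entries in the table, 22 were tested, 4 were higher and 4 lower at an adjusted p under 0.05 (edgeR), which is 36.4% of those tested against 42.7% of all genes. Their median log2 fold change was -0.03. AKAP13, a large scaffold that anchors PKA, rose from 127 ± 10.7 to 168 ± 16.2 CPM (log2 fold change 0.40 ± 0.06, SE; edgeR adjusted p = 2.72e-05). AKAP6, known from the nuclear envelope of muscle, rose from 5.27 ± 0.411 to 7.39 ± 0.334 CPM (0.49 ± 0.12, SE; edgeR adjusted p = 0.00280). Among those that fell, MAP2, a microtubule protein that binds PKA, went from 33.7 ± 1.78 to 20.4 ± 2.06 CPM (-0.72 ± 0.07, SE; edgeR adjusted p = 1.33e-07).

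AKAP2 fell from 119 ± 4.43 to 80.9 ± 1.67 CPM (SD, n = 4 each; log2 fold change -0.56 ± 0.04, SE; edgeR adjusted p = 1.38e-09). AKAP2 shares exons with the readthrough gene PALM2-AKAP2, so the division between them is uncertain. PALM2-AKAP2 had 0.495 ± 0.521 and 1.05 ± 1.72 CPM (SD, n = 4 each). Its ADRA2A mean came mostly from library 4, at 3.61 CPM, with at most 0.462 CPM in the other ADRA2A libraries. None of the 22 lay as low as AKAP12, their fitted log2 fold changes running from -0.72 to 0.49. Because AKAP12 was chosen on its fall, its place under them and its change of rank are descriptions only. Ranked per kilobase among the 23 anchoring proteins tested that have an annotated length (AKAP2 has none in the annotation used), AKAP12 was 4th in each empty-vector library and 10th or 11th in each ADRA2A library. EZR, ACBD3 and AKAP1 held ranks 1 to 3 in all 8 libraries. These ranks take the union of exons as the length. Ranks with other lengths, which can change the order, were not computed.

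**Figure D4:**
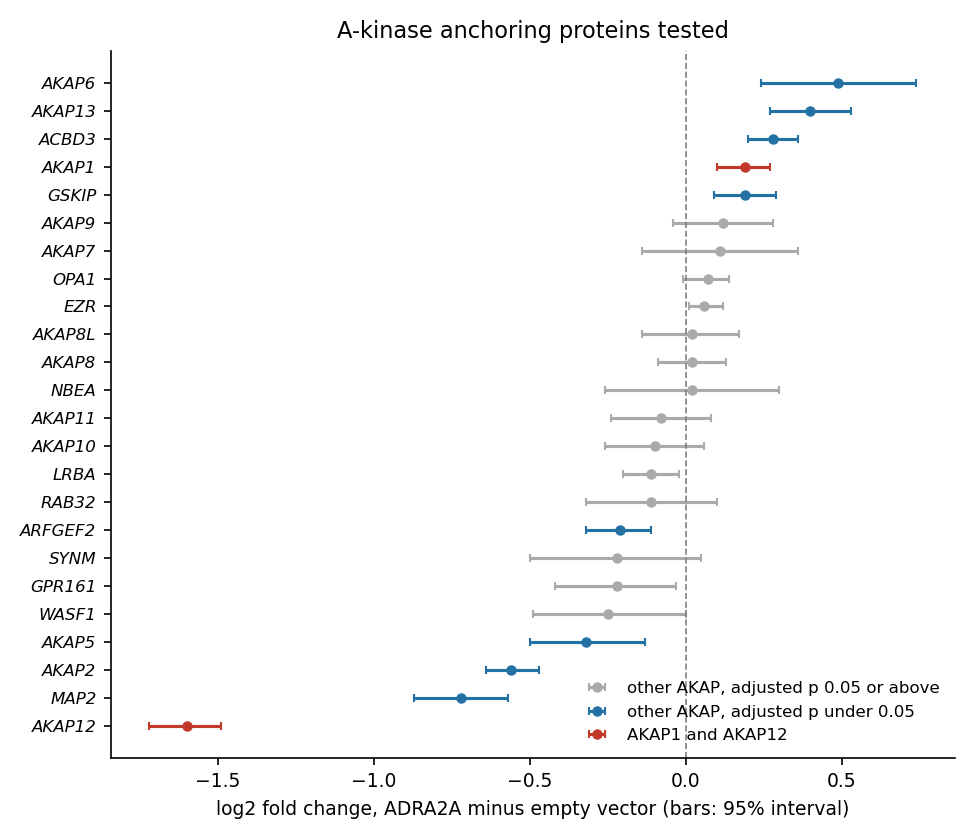
Fitted log2 fold change (horizontal axis, ADRA2A minus empty vector) with its 95% interval for the 24 anchoring proteins tested. AKAP12, which was chosen on its fall, lies apart at -1.60. The 22 others apart from AKAP1 span -0.72 (MAP2) to 0.49 (AKAP6).

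Genes for proteins that bind the AKAP12 scaffold changed in both directions. All 12 listed partners were tested and all 12 were called (5 higher, 7 lower; edgeR adjusted p under 0.05), with a median log2 fold change of -0.12. Among all genes tested 42.7% were called. CCND1, the cyclin D1 gene, fell by 0.43 on the log2 scale, as did AURKA, a mitotic kinase gene (edgeR adjusted p = 6.75e-10 and 7.97e-08). PPP3CA, the calcineurin catalytic subunit gene, fell by 0.36 (edgeR adjusted p = 5.88e-06).

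Cyclic AMP also acts on proteins other than PKA, and 15 genes of such effectors were in the table. Of these 6 were tested, 1 was higher and 3 lower at an adjusted p under 0.05 (edgeR), 66.7% of those tested against 42.7% of all genes. RAPGEF3, which encodes the exchange factor EPAC1, rose from 24.7 ± 2.14 to 42.2 ± 2.59 CPM (SD, n = 4 each; log2 fold change 0.77 ± 0.07, SE; edgeR adjusted p = 1.76e-08). The Popeye domain genes BVES and POPDC3, whose proteins bind cyclic AMP at membranes, both fell. BVES went from 7.24 ± 0.833 to 3.62 ± 0.192 CPM and POPDC3 from 5.80 ± 0.684 to 3.72 ± 0.703 CPM (SD, n = 4 each), at log2 fold changes of -1.0 and -0.64 (edgeR adjusted p = 7.77e-06 and 0.00301). CNGA1, a cyclic nucleotide-gated channel gene, had -0.36 (SE 0.13; adjusted p = 0.0329, edgeR), and without empty-vector library 2 its adjusted p was 0.122.

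A last list held genes that mature PKA subunits, turn them over, or encode phosphatase inhibitors. Of 8 genes 7 were tested, and 2 were higher and 3 lower at that threshold (edgeR), 71.4% against 42.7% of all genes. NMT2, an enzyme of the family that attaches myristate to proteins such as the catalytic subunits, fell from 57.7 ± 4.07 to 34.5 ± 1.94 CPM (SD, n = 4 each; log2 fold change -0.74 ± 0.06, SE; edgeR adjusted p = 4.89e-09), whereas NMT1 had a log2 fold change of -0.03 (edgeR adjusted p = 0.528). PJA2, a ubiquitin ligase that marks regulatory subunits for degradation, rose by a log2 fold change of 0.16 (SE 0.04; adjusted p = 0.00128, edgeR). PPP1R1C fell by 0.90 on the log2 scale (edgeR adjusted p = 5.73e-05). PPP1R1B, which encodes DARPP-32, rose from 1.26 ± 0.556 to 2.31 ± 0.563 CPM with overlapping groups (edgeR adjusted p = 0.0243), and without empty-vector library 3 its adjusted p was 0.0847.

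Genes within 1 Mb of the 3 members with the larger falls had smaller differences than the members. Taking members by the size of their fall makes this likely. Within 1 Mb of the AKAP12 start 5 other genes were tested, with log2 fold changes from -0.19 to 0.26 and a median of -0.15. Within 3 Mb the lowest neighbours reached -3.14 around PRKAR2B and -3.10 around PKIB, under the members themselves. Within 1 Mb of PRKAR2B 13 genes were tested, from -0.31 to 0.67 with a median of 0.01, and of PKIB 4 genes, from -0.04 to 0.32 with a median of 0.11. SERINC1 starts 0.1 kb from the first PKIB start, on the other strand, and was higher in the ADRA2A cells (log2 fold change 0.23 ± 0.04, SE; edgeR adjusted p = 5.87e-05). PRKAR1B, sat among 22 tested neighbours of which 15 had a log2 fold change under 0, with a median of -0.11.

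**Figure D5:**
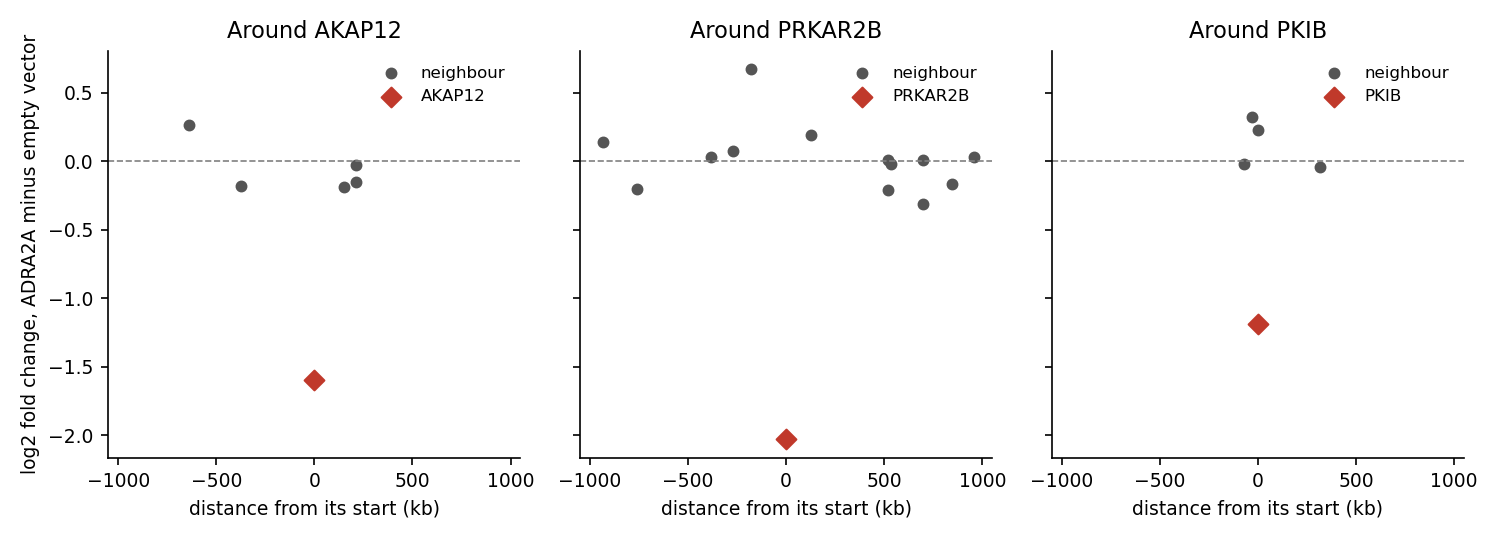
Fitted log2 fold change (vertical axis, ADRA2A minus empty vector) of tested genes against the distance of their start from that of AKAP12, PRKAR2B or PKIB, counted along the direction of the member's transcription. The member (red diamond), taken for the size of its fall, lies under all tested neighbours within 1 Mb in each panel.

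The expression profile of AKAP12 over the 8 libraries was matched against 10159 genes with a mean of at least 10 CPM, by the root mean square difference of centred log2 values. The 5 closest were KCTD12 (0.107), COL1A1 (0.115), IGF2 (0.126), FGFR2 (0.127) and FAM171A1 (0.143), in log2 units. All 5 were lower in the ADRA2A libraries, as matching a profile set by its fall requires. The values of COL1A1 are given above, and FGFR2, a fibroblast growth factor receptor gene, had 34.5 ± 0.773 and 11.7 ± 1.53 CPM (SD, n = 4 each). The 5 genes lie on chromosomes 13, 17, 11, 10 and 10, none of them on that of AKAP12.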

How the data were processed

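RNA was sequenced from 8 CFPAC-1 libraries, 4 with an empty vector and 4 with the ADRA2A transgene. The authors deposited RSEM estimated counts per gene, unscaled between libraries; cutadapt, STAR, RSEM, DESeq2 and hg38 are named without versions in the submitters' processing notes, and the annotation release and strand setting are not given in the sources used here. Columns were assigned by the name in each sample's title, and 0 were left unassigned. Estimated counts were rounded. Genes were kept by filterByExpr in edgeR 4.0.16 (R 4.3.3), libraries were scaled by TMM (factors 0.9938 to 1.0055), and group was tested across all genes by the quasi-likelihood test with Benjamini-Hochberg adjustment at 0.05. DESeq2 1.42.0 was an alternative. Standard errors are the absolute log2 fold change over the square root of F, and intervals are 95%. The fit was tested on simulated data beforehand.

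Positions and exonic lengths came from GENCODE on GRCh38, matched by Ensembl identifier; the length is the union of exons. RSEM divides multi-mapping reads, so similar or overlapping genes can exchange counts. No within-group pair of libraries agreed within sampling noise (chi-square per degree of freedom 2.148 to 5.041), so each was counted once.

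Members and lists were chosen with earlier results of these data known. All 10 members are named; from each list, up to 4 genes past the threshold whose higher group averaged 1 CPM or more, by size of change; and the 5 genes most like AKAP12. NMT1, PKIG, PRKX, PRKY, PRKACG, EZR, ACBD3 and SERINC1 were named after their values were seen. A gene of the lists that the rule would name is not reported here.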

Additional observations from a re-analysis of the deposited data

Results flagged for a closer look

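Values of the 10 members, of ADRA2A and of 4 composition measures were examined for a library far from the other 3 of its group, in 30 groups of 4; chance alone marks about 1 group in 20. In the empty-vector group, library 3 had 47.2 CPM of PRKAR2A, while the other 3 lay between 44.4 and 44.9 CPM. In the ADRA2A group, PRKACA made 44.7% of the catalytic RNA per kilobase in library 1 and between 49.6% and 50.5% in the other 3.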

How the results depend on the processing

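The alternatives were DESeq2, RLE or upper quartile factors, no filter on low counts, a mean of at least 50 counts (where PRKAR2B was not tested), a block for replicate number, and fits without 1 library each. Genes called across the transcriptome numbered 5703 to 6550, and 0 of the calls shared with the 6314 reported changed direction. Leaving out 1 library gave 3 to 6 calls among the 9 members other than AKAP12, with 3 without empty-vector library 4; the cause was not tested. Without 1 library, the log2 fold change of PRKACA ranged from -0.07 to 0.02 and that of PRKAR2A from -0.00 to 0.04. PRKACA had 0.02 without empty-vector library 3 and 0.01 without ADRA2A library 1, and PRKAR2A had -0.00 without ADRA2A library 4. With the replicate number as a block, 7 members were called and AKAP12 stayed at -1.60; same-numbered libraries correlated at -0.04, 0.01, 0.126 and -0.029 over 12325 genes, so the numbers were not taken to pair the libraries. The type II share was 12.6% and 13.1% (empty vector, ADRA2A) with the longest transcript as length and 10.0% and 10.4% with the longest coding sequence, which also gave a regulatory to catalytic ratio of 3.24 in both groups. PKIA plus PKIB per 100 units of catalytic RNA came to 87.6 and 50.2 with the longest coding sequence, 20.7 in the ADRA2A cells with the longest transcript, and 75.0 and 57.3 with PKIG included, all chosen after seeing the data. The median log2 fold change of neighbours was 0.20 (PRKAR1A), -0.15 (PRKAR1B) and 0.13 (PRKAR2B) within 0.5 Mb, and -0.13 (PRKAR1B), 0.03 (PKIA, 0.38 within 1 Mb) and -0.03 (AKAP12) within 3 Mb. PRKAR2B, with 3 to 13 counts in the ADRA2A libraries, is the member whose size of change depth limits most.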
